A study of Mus musculus with 4 samples.

Results

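The heat shock protein genes, their DNAJ cochaperones and the BAG nucleotide exchange factors were examined in mouse embryonic stem cells after deletion of Smarca4. Members were taken by symbol, as names that begin with Hsp and a number, with Hspa, Hspb, Hspd, Hspe, Hspf or Hsph and a number, or with Dnaja, Dnajb or Dnajc, and as Bag1 to Bag6. This gave 78 of the 24428 genes in the files: 14 HSP70 genes (Hspa symbols and Hsph1), 3 HSP90 genes, 8 small HSP genes, the 2 mitochondrial chaperonin genes Hspd1 and Hspe1, 45 DNAJ genes and 6 BAG genes. The data were read counts per gene from 4 poly(A) RNA-seq libraries, 2 of ethanol-treated cells and 2 of cells exposed to 0.8 uM 4-hydroxytamoxifen. All 4 came from one kind of cell, stem cells of the 129SvEv background, cultured with serum and LIF, in which both Smarca4 alleles are floxed and a CreER recombinase becomes active with tamoxifen. Exposure lasted 48 h and RNA was taken 72 h after it began. Smarca4 encodes BRG1, an ATPase of the BAF chromatin remodeling complexes. The genotype label is the same in both groups and names the deletion, so the groups rest on the treatment. Whether replicates were separate cultures or clones is not given in the sources used here, so p-values measure the spread between these libraries, which may be technical. No tamoxifen-treated cells without floxed alleles were analysed here, so drug, active Cre and deletion cannot be told apart.

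Heat shock proteins are molecular chaperones, which bind unfolded or partly folded proteins and help them fold, assemble, cross membranes or be degraded. HSP70 proteins work through an ATP cycle: DNAJ proteins, named for their J domain, bring substrates and trigger ATP hydrolysis, and exchange factors such as the BAG and HSP110 proteins release the ADP. HSP90 acts later on signaling proteins and receptors, the chaperonin HSP60 with its lid HSP10 encloses proteins in mitochondria, and small HSPs hold unfolded proteins without ATP. Some members are made at all times and others are induced by the heat shock factor HSF1, which binds arrays of the short unit GAA and its complement TTC in promoters. The chaperones of the endoplasmic reticulum (ER) are induced instead by the unfolded protein response through the ER stress element.

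Promoters from RefSeq (build GRCm38.p6, matched by symbol, 250 bases before to 50 bases after the start of transcription) were found for 63 of the 78 members. Among the members without one were Hsp90aa1, Hsp90ab1, Hspa8, Hspa9 and Hspa13, so these were not searched for motifs. The letters GAANNTTC, which read the same on both strands, occurred in a promoter of 15 of the 63 members and in 7.86% of all 32851 promoters. The longer array GAANNTTCNNGAA, searched on both strands and holding the shorter motif within it, occurred in promoters of Dnajb6, Hspd1, Hspe1 and Hsph1 and in 0.603% of all promoters. The ER stress element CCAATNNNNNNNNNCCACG, searched on both strands, occurred in promoters of Hspa5, Hsp90b1 and Dnajc3 and in 0.119% of all promoters. The 63 members had 81 promoters, and a member counted if any of its promoters matched. The percentages count single promoters, so the 2 measures are unlike. A match describes the letters and does not show that a factor binds. The windows below run 5′ to 3′ on the strand of the gene and are shown because their genes carry the main comparisons: the chaperonin pair, the 2 inducible HSP70 copies and the ER chaperones. Capitals mark the motif (the long array for Hspe1, GAANNTTC for both HSP70 copies, the ER stress element for the others).
Hspe1, chr1:55087998-55088147, plus strand: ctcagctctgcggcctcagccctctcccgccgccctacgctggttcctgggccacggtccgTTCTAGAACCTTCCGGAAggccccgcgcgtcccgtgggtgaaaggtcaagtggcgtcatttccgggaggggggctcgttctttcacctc
Hspa1a, chr17:34972157-34972306, minus strand: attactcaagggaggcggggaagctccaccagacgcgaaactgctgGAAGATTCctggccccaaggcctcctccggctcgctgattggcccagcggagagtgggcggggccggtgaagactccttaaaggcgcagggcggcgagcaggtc
Hspa1b, chr17:34959239-34959388, minus strand: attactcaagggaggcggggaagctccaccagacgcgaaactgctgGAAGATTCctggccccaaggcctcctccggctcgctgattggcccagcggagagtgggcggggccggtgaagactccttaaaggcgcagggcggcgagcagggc
Hsp90b1, chr10:86705515-86705664, minus strand: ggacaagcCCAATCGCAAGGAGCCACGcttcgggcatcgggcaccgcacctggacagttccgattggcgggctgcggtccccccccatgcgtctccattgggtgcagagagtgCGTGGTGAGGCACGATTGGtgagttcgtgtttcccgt
Hspa5, chr2:34771940-34772089, plus strand: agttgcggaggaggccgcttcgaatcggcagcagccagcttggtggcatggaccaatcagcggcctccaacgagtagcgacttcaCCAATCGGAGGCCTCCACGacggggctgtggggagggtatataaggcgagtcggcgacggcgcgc
Dnajc3, chr14:118937782-118937931, plus strand: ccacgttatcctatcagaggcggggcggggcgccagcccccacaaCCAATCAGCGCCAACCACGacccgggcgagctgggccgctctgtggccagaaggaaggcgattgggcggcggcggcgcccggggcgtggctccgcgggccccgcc

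The Hsp90b1 window ends 71 bases before the start, and the others end just before it. The array of Hspe1 begins 89 bases before its start. Hspd1 lies head to head with Hspe1, and 285 of the 300 bases of one of its promoters are those of Hspe1 on the other strand, so the chaperonin genes share this array. The Hspa1a and Hspa1b promoters were identical at 296 of 300 positions (98.7%), and the transcripts of these tandem copies are also near-identical, so the division of reads between them is uncertain. Hsp90b1 held 2 ER stress elements, on opposite strands, and Hspa5 and Dnajc3 held 1 each.

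Reads in genes ranged from 13458463 to 27086142 per library, and the members took 2.02 and 2.29% of them with ethanol and 1.79 and 1.95% with tamoxifen. The targeted gene checked the labels: Smarca4 was at 328 and 409 CPM with ethanol and 68.5 and 68.7 with tamoxifen (CPM, a gene's reads relative to the library's total after TMM scaling), a log2 fold change of -2.43 ± 0.17 (SE; edgeR quasi-likelihood test, adjusted p = 1.08e-05). All 10 embryonic stem cell markers were measured, with summed levels of 8130 and 7580 CPM with ethanol and 6710 and 6200 with tamoxifen. Of these 1 rose and 3 fell (3 and 4 with the GC correction described below), and Tet1 had the largest difference, from a mean of 2440 to 1070 CPM. Of 10 fibroblast markers, 7 of the 9 that could be tested rose, and 6 of these also with the GC correction, which called 7; their summed level went from 158 to 218 CPM with ethanol to 390 to 398 with tamoxifen. Of the 10 primitive endoderm markers 3 rose, at 2380 to 2810 CPM in sum with ethanol and 2820 to 3090 with tamoxifen, and 1 was higher with the GC correction. The haemoglobin genes Hbb-b1 and Hba-a1 had no read in any library. The part of these markers in the results below was not tested. In a bulk sample, fewer cells of a type and less RNA per cell cannot be told apart.

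Chaperone genes more often fell than rose with tamoxifen. Of the 78 members, 72 passed the filter on low counts. Among these, 12 rose and 26 fell (edgeR quasi-likelihood test over 14479 genes, adjusted p under 0.05), and 34 did not pass the test. Calls covered 44.5% of all genes tested, 21.5% higher and 22.9% lower, against 52.8, 16.7 and 36.1% of the members. The median log2 fold change was -0.12 over the members tested and -0.01 over all genes tested. The tamoxifen libraries lay above the ethanol libraries for 22 members, below them for 33 and overlapped with them for 17; groups did not overlap for 74.0% of all genes tested, 37.0% above and 37.0% below. Of the 6 untested members, Hspb3 and Dnajb8 had no read in any library, Dnajc5b and Dnajc5g had 1 read each, Hspb9 had 1 to 6 reads per library and Dnajb7 3 to 15. Without tamoxifen replicate 1, 12 members fell, and without tamoxifen replicate 2, 7 rose and 16 fell. Scaled by total counts instead, the median of all genes moved by 0.13, and 12 members were higher and 18 lower, with 61.8% of all calls on the higher side against 48.4%.

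The direction of a member moved with the GC content of its transcript. The 24 tested members poorest in G and C (39.5 to 45.9%) held no gene that rose and 15 that fell, with a median log2 fold change of -0.54. The 24 richest (52.1 to 61.7%) held 11 that rose and 2 that fell, with a median of 0.42. Over the 72 members the Spearman correlation between GC content and log2 fold change was 0.706, and over 14395 genes it was 0.633. The shares of all genes called in the same GC ranges were not computed. The split by GC content is therefore not shown to be particular to the members. These are descriptions across genes that share the same 4 libraries. A second test, in which the trend of each library along GC content was removed, called 20.5% of all genes (9.82% higher, 10.7% lower) and 4 members higher and 9 lower. Of the 72 members, 10 passed both tests, each on one side in both. Dnajb2, Dnajb5 and Dnajc14 rose, and Hsp90b1, Hspa2, Hspa12a, Hspb8, Hspb11, Dnajc15 and Dnajc24 fell. Over all 14479 genes tested, 1027 were higher and 1162 lower in both tests. Hspa2 and Dnajc24 were the only members called in both tests also without each library in turn. How many of all genes tested met this was not counted, so it does not set the members apart from other genes. The trend was fitted on these same libraries, so the correction also removes any treatment difference that runs along GC content. The value with GC correction is given below beside each call, and the part of GC content in the calls was not otherwise tested.

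**Figure D1:**
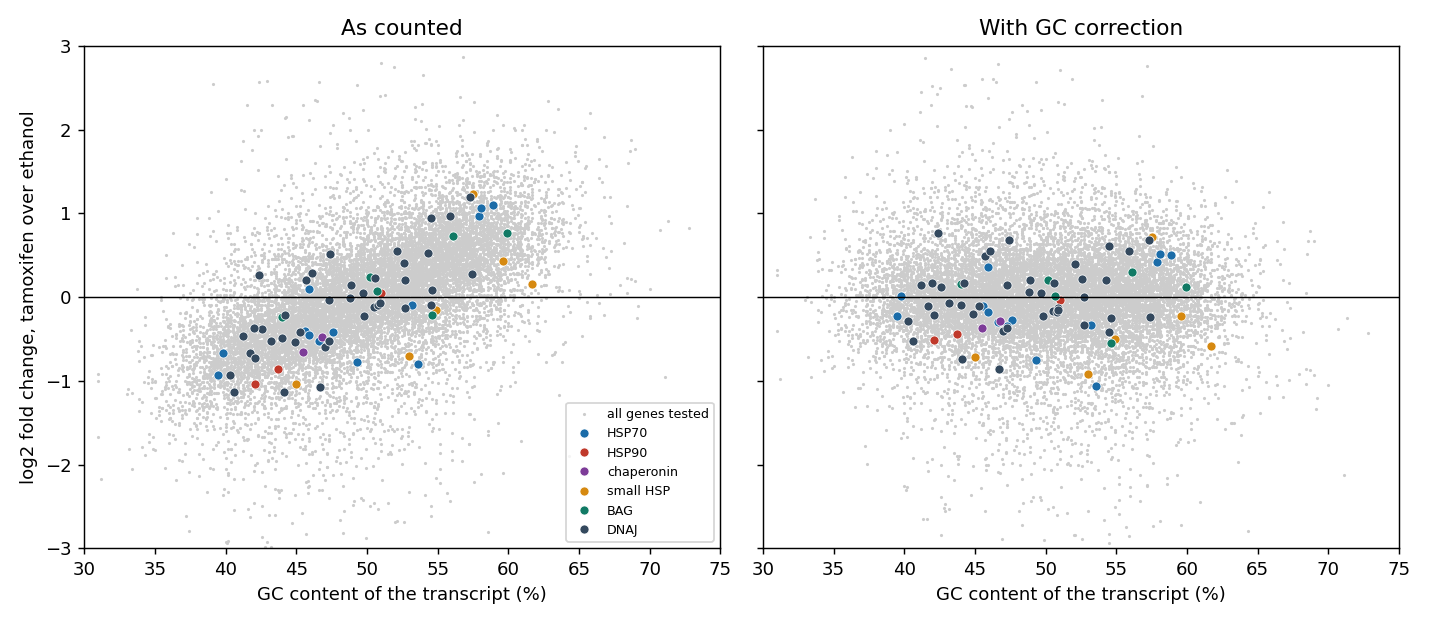
Log2 fold change of tamoxifen over ethanol (vertical axis) against GC content of the longest transcript in percent (horizontal axis) for members by group (colored points) and all genes tested (grey; genes outside the axes are not drawn), as counted on the left and after removal of the GC trend on the right. On the left the members follow the grey cloud upward (Spearman 0.706 over 72 members). On the right, where the fit itself removed the trend over all genes, they lie around 0 (Spearman 0.131).

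HSP90 genes differed from one another: the ER form and the inducible cytosolic form fell, and the constitutive cytosolic form did not pass the test. Hsp90b1 encodes GRP94, the HSP90 of the ER lumen. It was at 1700 and 2100 CPM in the ethanol pair and at 858 and 981 in the tamoxifen pair (replicate 1 first here and below), so both tamoxifen libraries were well below both ethanol libraries. It fell 2.06-fold (-1.04 ± 0.17 log2, SE; edgeR adjusted p = 0.000633). With GC correction it remained lower (-0.51 log2, edgeR adjusted p = 0.0258), a call lost without ethanol replicate 2 (-0.41) or either tamoxifen library (-0.45 and -0.58).

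Hsp90aa1, the stress-responsive cytosolic HSP90, was at 4870 and 6230 CPM with ethanol and 2840 and 3260 with tamoxifen. It fell 1.82-fold (-0.86 ± 0.17 log2; edgeR adjusted p = 0.00202) and kept this call without each library, but with GC correction it was at -0.44 and just outside the threshold (edgeR adjusted p = 0.0520; called without ethanol replicate 1, -0.58). Hsp90ab1, its constitutive paralog, was at 4740 and 4710 CPM with ethanol and 4730 and 5050 with tamoxifen, and the groups overlapped. Its log2 fold change was 0.05 ± 0.15 (edgeR adjusted p = 0.815), and -0.04 with GC correction. The cytosolic paralogs can also be compared within a library, where library size cancels. Per kb of transcript, Hsp90aa1 had 0.790 and 1.02 times the reads of Hsp90ab1 with ethanol and 0.462 and 0.496 times with tamoxifen. The transcripts differ in GC content, 43.7% for Hsp90aa1 and 51.0% for Hsp90ab1, and the ratio was not corrected for it. As mean CPM per kb, the ethanol levels were 1690 and 1880, and the tamoxifen levels 930 and 1940.

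**Figure D2:**
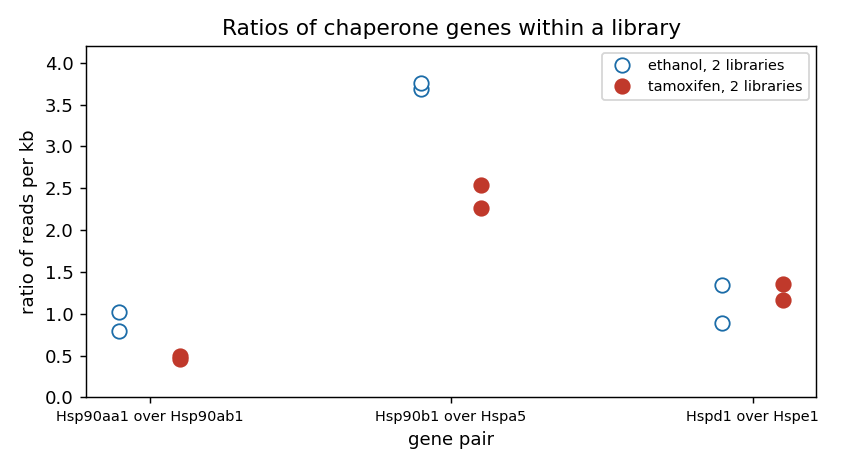
Ratio of reads per kb of transcript (vertical axis) between members of a gene pair (horizontal axis) in each ethanol (open) and tamoxifen (filled) library. Hsp90aa1 over Hsp90ab1 lies at 0.462 and 0.496 with tamoxifen, under both ethanol values (0.790 and 1.02), and Hspd1 over Hspe1 overlaps between the groups.

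Among the HSP70 genes 8 of 14 fell and 3 rose (57.1 and 21.4%, against 22.9 and 21.5% of all genes tested). The median log2 fold change was -0.44. The abundant cytosolic Hspa8, which encodes the constitutive HSC70, was at 2670 and 2700 CPM with ethanol and 2650 and 3120 with tamoxifen. The groups overlapped, with a log2 fold change of 0.10 ± 0.16 (edgeR adjusted p = 0.624; 0.36 and not called with GC correction). With 851 and 913 CPM per kb in the ethanol and tamoxifen groups it was the highest of the HSP70 genes in both.

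Of the organelle forms, Hspa9 had 296 and 216 CPM per kb in the ethanol and tamoxifen groups and Hspa5 158 and 120, with the cytosolic Hspa4 between them at 210 and 147. Hspa9, the mitochondrial HSP70 mortalin, drives import of proteins into the matrix. It was at 806 and 997 CPM with ethanol and 641 and 675 with tamoxifen, a fall of 0.45 on the log2 scale (-0.45 ± 0.16; edgeR adjusted p = 0.0382). Hspa5 encodes BiP, the HSP70 of the ER lumen. It was at 524 and 635 CPM with ethanol and 385 and 496 with tamoxifen, and its log2 fold change of -0.40 ± 0.17 did not pass (edgeR adjusted p = 0.0826; called without ethanol replicate 1, -0.53). With GC correction Hspa9 was at -0.18 and Hspa5 at -0.11, neither called. The call of Hspa9 ended without ethanol replicate 2 (-0.29) or either tamoxifen library (-0.42 and -0.49), and with total counts (-0.33). Although BiP and GRP94 share the ER lumen and the ER stress element shown above, Hsp90b1 had 3.69 and 3.76 times the reads of Hspa5 per kb with ethanol and 2.54 and 2.26 times with tamoxifen. GC contents were 42.1% for Hsp90b1 and 45.6% for Hspa5.

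Hspa4, Hsph1 and Hspa4l, the HSP110 proteins outside the ER, act as exchange factors for HSP70, and all 3 fell. Hspa4 was at 939 and 1000 CPM with ethanol and 610 and 743 with tamoxifen (-0.52 ± 0.16 log2, SE; edgeR adjusted p = 0.0207). Hsph1, whose promoters hold the long heat shock array, was at 158 and 197 CPM with ethanol and 116 and 131 with tamoxifen (-0.52 ± 0.16 log2; edgeR adjusted p = 0.0190). Hspa4l, the third of them and the lowest, was at 11.7 and 16.1 CPM with ethanol and 7.36 and 7.34 with tamoxifen (-0.93 ± 0.20 log2; edgeR adjusted p = 0.00302). None was called with GC correction (-0.30, -0.35 and -0.22). The call of Hspa4l held without each library. That of Hspa4 ended without tamoxifen replicate 1 (-0.39) or 2 (-0.67), and that of Hsph1 without ethanol replicate 2 (-0.34) or either tamoxifen library (-0.44 and -0.61), while with GC correction Hsph1 was called without ethanol replicate 1 (-0.50). With total counts neither Hspa4 (-0.39) nor Hsph1 (-0.40) passed.

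Hspa2, an HSP70 known for its role in spermatogenesis, fell 1.74-fold and was lower under every setting run. It was at 29.3 and 21.2 CPM with ethanol and 14.7 and 14.1 with tamoxifen (-0.80 ± 0.18 log2; edgeR adjusted p = 0.00442), and the GC correction made the difference larger (-1.06, edgeR adjusted p = 0.00154). The distant family member Hspa12a was at 8.47 and 7.68 CPM with ethanol and 4.67 and 4.71 with tamoxifen (-0.78 ± 0.20 log2; -0.75 with GC correction, edgeR adjusted p = 0.0180). Its corrected call ended without either tamoxifen library (-0.75 in both cases). Hspa13, an ER-associated HSP70-like ATPase, fell by 0.67 on the log2 scale, from 23.2 and 31.2 CPM to 16.2 and 18.0, and had no remaining difference with GC correction (0.01). Hspa14, an HSP70 of the ribosome-associated complex, had 184 and 194 CPM with ethanol and 132 and 151 with tamoxifen (-0.42 ± 0.15 log2; -0.27, not called, with GC correction). The call of Hspa13 ended without ethanol replicate 2 (-0.43) or tamoxifen replicate 1 (-0.60). That of Hspa14 ended without ethanol replicate 2 (-0.37) or either tamoxifen library (-0.33 and -0.51) and with total counts (-0.29).

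The heat-inducible copies Hspa1a and Hspa1b rose, from low levels. Hspa1a was at 5.99 and 5.11 CPM with ethanol and 10.0 and 13.5 with tamoxifen, from 92 to 241 reads per library, and rose 2.14-fold (1.1 ± 0.21 log2, SE; edgeR adjusted p = 0.00147). Hspa1b was at 7.69 and 7.37 CPM with ethanol and 13.7 and 17.9 with tamoxifen and rose 2.10-fold (1.07 ± 0.19 log2; edgeR adjusted p = 0.00101). Both tamoxifen libraries were above both ethanol libraries for each copy, and both calls held without each library. Because the copies are near-identical, these are not separate observations. With GC correction they were at 0.50 and 0.51, not called (edgeR adjusted p = 0.0909 and 0.0624). Hspa1l, the copy next to Hspa1a that is expressed mainly in testis, did not pass the test, at 3.32 and 2.42 CPM with ethanol and 2.76 and 2.52 with tamoxifen. Hspa12b, known from endothelium, rose by 0.97 ± 0.33 log2 on 20 to 39 reads per library (edgeR adjusted p = 0.0287). That call ended with GC correction (0.42), with DESeq2 (0.95) and without ethanol replicate 2 (0.71) or either tamoxifen library (1.0 and 0.92). Over the group of 14, the count of HSP70 genes that fell was 4 with total counts and 2 with GC correction. Of all 14479 genes tested, 2520 fell with total counts and 10.7% were lower with GC correction. Fewer HSP70 genes also fell without ethanol replicate 2 or either tamoxifen library.

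**Figure D3:**
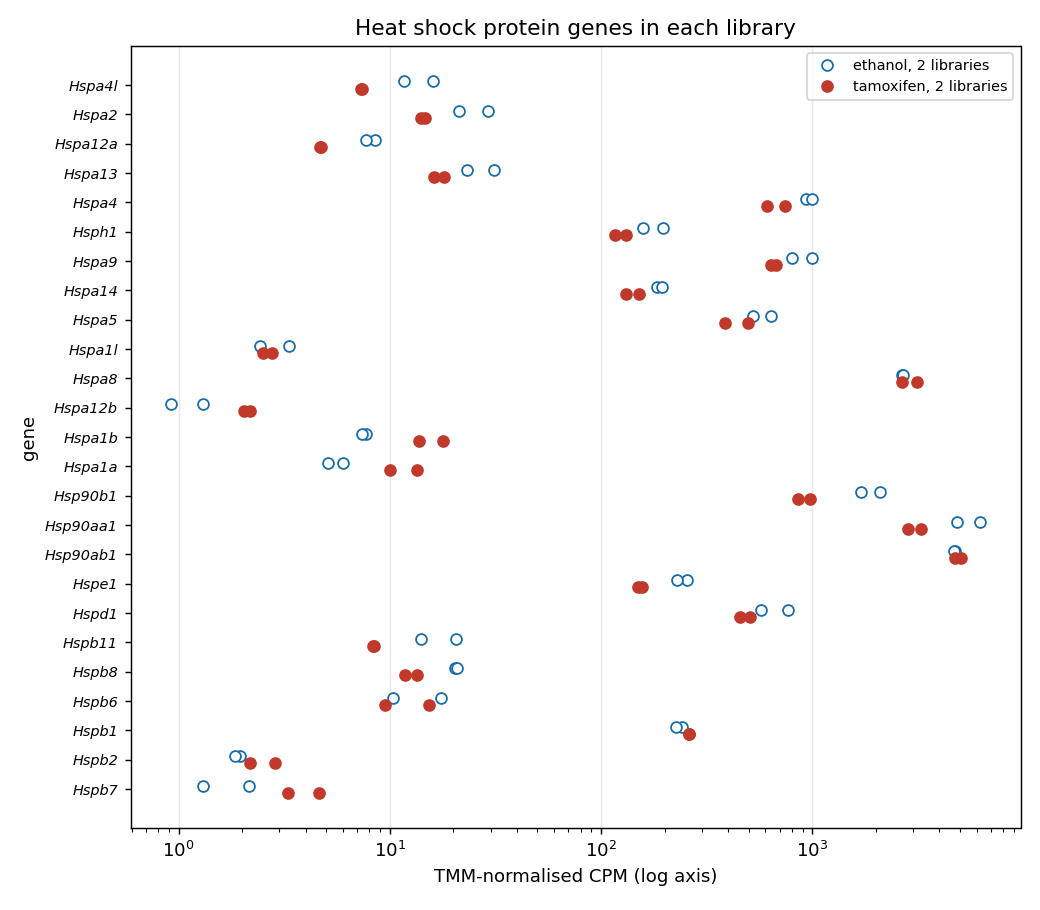
TMM-normalised CPM (log axis) of the tested HSP70, HSP90, chaperonin and small HSP genes, ordered within each group by log2 fold change, with the 2 ethanol libraries open and the 2 tamoxifen libraries filled. Hsp90b1, Hsp90aa1 and most HSP70 genes lie lower with tamoxifen, Hspa1a and Hspa1b lie higher, and Hspa8 and Hsp90ab1 overlap.

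The chaperonin genes both fell (22.9% of all genes tested fell, and 44.5% were called in either direction). Hspe1, the HSP10 lid, was at 254 and 228 CPM with ethanol and 156 and 149 with tamoxifen, a 1.58-fold fall (-0.66 ± 0.15 log2, SE; edgeR adjusted p = 0.00393). Hspd1, the HSP60 ring subunit, was at 572 and 768 CPM with ethanol and 454 and 506 with tamoxifen, a 1.40-fold fall (-0.48 ± 0.17 log2; edgeR adjusted p = 0.0404). Both tamoxifen libraries lay below both ethanol libraries for each gene. Reads per kb of Hspd1 over those of Hspe1 were 0.895 and 1.34 with ethanol and 1.16 and 1.35 with tamoxifen, so the ratio within the pair overlapped between the groups. With GC correction the values were -0.37 for Hspe1 and -0.28 for Hspd1, and neither was called (edgeR adjusted p = 0.0846 and 0.236). The call of Hspe1 ended without tamoxifen replicate 2 (-0.62), and that of Hspd1 without ethanol replicate 2 (-0.25) or either tamoxifen library (-0.41 and -0.56) and with total counts (-0.36). The corrected values were called without ethanol replicate 1 for Hspd1 (-0.46) and without ethanol replicate 2 for Hspe1 (-0.48).

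Of 6 tested small HSP genes 1 rose and 2 fell, or 50% called, near the 44.5% of all genes tested. With GC correction 0 of the 6 were higher and 3 lower, with a median of -0.54 log2. Of all genes tested 9.82% were then higher and 10.7% lower. Hspb1, which encodes HSP25 and was by far the most abundant per kb (251 CPM per kb with ethanol, 280 with tamoxifen), was at 241 and 226 CPM with ethanol and 261 in both tamoxifen libraries. Its log2 fold change of 0.16 ± 0.15 did not pass (edgeR adjusted p = 0.396). Its transcript had the highest GC content of all tested members, 61.7%, and with GC correction its sign turned and it was called lower (-0.59, edgeR adjusted p = 0.00993; not called without tamoxifen replicate 1, -0.62, or 2, -0.57). Hspb8 works with BAG3 in the autophagic disposal of damaged proteins. It was at 20.4 and 20.7 CPM with ethanol and 11.8 and 13.4 with tamoxifen and fell 1.62-fold (-0.70 ± 0.16 log2; edgeR adjusted p = 0.00512), with -0.92 after GC correction (edgeR adjusted p = 0.00215). The uncorrected call ended without tamoxifen replicate 1 (-0.61).

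Hspb11 carries a small HSP symbol but is known as IFT25, a subunit of the intraflagellar transport complex of cilia. It was at 20.6 and 14.1 CPM with ethanol and 8.42 and 8.35 with tamoxifen and fell 2.05-fold (-1.04 ± 0.20 log2; -0.71 with GC correction, edgeR adjusted p = 0.0324). The corrected call ended without ethanol replicate 1 (-0.39) or either tamoxifen library (-0.74 and -0.69). Hspb7, known from heart muscle, rose 2.35-fold on 33 to 65 reads per library, from 2.15 and 1.31 CPM to 4.60 and 3.31 (1.23 ± 0.31 log2; edgeR adjusted p = 0.00702; 0.72, not called, with GC correction, and 1.01 and called with it without ethanol replicate 1). Hspb6 was at 17.5 and 10.3 CPM with ethanol and 15.4 and 9.53 with tamoxifen, where replicate 1 was higher in both groups (-0.15 ± 0.30 log2). Without ethanol replicate 2 it was called lower (-0.50, and -0.83 with GC correction). Hspb2 was near 2 CPM throughout, from 1.84 to 2.86, and did not pass (0.43 ± 0.28 log2; -0.22 with GC correction). It lies next to Cryab on the opposite strand, and whether the counting used strand is not given in the sources used here.

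DNAJ genes were called about as often as genes in general: 6 of 41 tested rose and 12 fell, 43.9% in all, against 44.5% of all genes. Of the DNAJA genes 0 of 4 rose and 1 fell, of the DNAJB genes 3 of 11 rose and 1 fell, and of the DNAJC genes, which share little beyond the J domain, 3 of 26 rose and 10 fell. The largest increase was that of Dnajb2, which encodes HSJ1, a ubiquitin-binding cochaperone that hands HSP70 clients to the proteasome. It was at 5.73 and 5.15 CPM with ethanol and 12.6 and 12.2 with tamoxifen, 88 to 217 reads per library, and rose 2.28-fold (1.19 ± 0.18 log2, SE; edgeR adjusted p = 0.000499). Dnajb5, a close relative of the heat-inducible Dnajb1, rose 1.91-fold from 19.5 and 21.9 CPM to 38.6 and 40.9 (0.94 ± 0.15 log2; edgeR adjusted p = 0.000693). Both remained higher with GC correction, at 0.68 and 0.61 (edgeR adjusted p = 0.0181 and 0.0143). The corrected calls ended without tamoxifen replicate 1 (0.64 for both) or 2 (0.72 for Dnajb2 and 0.57 for Dnajb5).

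The other increases were smaller. Dnajc14, an ER membrane J protein, had 21.4 and 26.0 CPM with ethanol and 31.8 and 36.4 with tamoxifen (0.52 ± 0.16 log2; 0.68 with GC correction, edgeR adjusted p = 0.00937). Dnajb12, an ER membrane protein that takes part in ER-associated degradation, had 37.7 and 33.3 CPM with ethanol and 51.3 and 50.7 with tamoxifen (0.53 ± 0.15 log2; 0.21, not called, with GC correction). Dnajc16, also of the ER, rose by 0.55 ± 0.18 log2 and Dnajc11, a protein of the mitochondrial outer membrane, by 0.41 ± 0.15, and with GC correction neither was called (0.40 and 0.22). The call of Dnajc14 ended without ethanol replicate 1 (0.39) or tamoxifen replicate 2 (0.42), and its corrected call without tamoxifen replicate 2 (0.60). Calls also ended for Dnajb12 without tamoxifen replicate 1 (0.51) or 2 (0.54), for Dnajc16 without ethanol replicate 2 (0.35) or tamoxifen replicate 2 (0.48), and for Dnajc11 without tamoxifen replicate 1 (0.54) or 2 (0.28) and with DESeq2 (0.41). With GC correction Dnajc16 was called without ethanol replicate 1 (0.60). Dnajb14, the ER membrane relative of Dnajb12, was not called as counted (0.26 ± 0.19) and was with GC correction (0.77, edgeR adjusted p = 0.0108); it is named after its values were seen.

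The largest decreases included J proteins of the ER and of mitochondria. Dnajb9 encodes ERdj4, a BiP cochaperone that restrains the stress sensor IRE1. It was at 76.2 and 47.9 CPM with ethanol and 28.6 and 28.0 with tamoxifen, a fall of 1.13 on the log2 scale (-1.13 ± 0.20; edgeR adjusted p = 0.00151). The ethanol replicates differed widely. With GC correction it was at -0.52 and not called, but was called without ethanol replicate 2 (-0.87). Dnajc15, or MCJ, sits in the mitochondrial inner membrane. It was at 37.1 and 30.1 CPM with ethanol and 17.8 and 13.0 with tamoxifen (-1.13 ± 0.19 log2; -0.74 with GC correction, edgeR adjusted p = 0.0206). Its corrected call ended without tamoxifen replicate 2 (-0.51). Dnajc19, a J protein of the import motor that works with mortalin, had 38.3 and 29.4 CPM with ethanol and 16.0 and 19.4 with tamoxifen (-0.93 ± 0.18 log2; -0.29, not called, with GC correction, and -0.54 and called with it without ethanol replicate 2).

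Dnajc24, or DPH4, serves in making diphthamide, a modified histidine of translation elongation factor 2. It was at 22.2 and 20.0 CPM with ethanol and 9.34 and 10.7 with tamoxifen, a fall of 1.07 on the log2 scale (-1.07 ± 0.17; edgeR adjusted p = 0.000595; -0.86 with GC correction, edgeR adjusted p = 0.00375). With Hspa2 it was lower under every setting run. The ribosome-linked J proteins also fell. Dnajc21, which acts in maturation of the large ribosomal subunit, had 248 and 235 CPM with ethanol and 143 and 149 with tamoxifen (-0.73 ± 0.15 log2). Dnajc2, the partner of Hspa14 in the ribosome-associated complex, had 201 and 258 CPM with ethanol and 137 and 153 with tamoxifen (-0.67 ± 0.16 log2). Neither was called with GC correction (-0.21 and -0.11), and the call of Dnajc2 also ended without tamoxifen replicate 1 (-0.59).

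The remaining decreases were those of Dnajc6, Dnajc10, Dnajc3, Dnajc9, Dnaja1 and Dnajc13, from -0.60 to -0.42 log2, none called with GC correction (-0.41 to 0.14). None of these calls held without each library in turn. Dnajc3, or P58IPK, and Dnajc10 are cochaperones of the ER lumen, and Dnaja1 is a general partner of HSC70. The heat-inducible Dnajb1, the classic HSP40, was at 65.5 and 71.6 CPM with ethanol and 63.3 and 62.4 with tamoxifen and did not pass (-0.13 ± 0.14 log2; -0.33 with GC correction, not called). The other 22 DNAJ genes that did not pass, Dnajb14 among them, had log2 fold changes from -0.49 to 0.97. Over the group, 4 genes were higher and 2 lower with GC correction. As counted, 5 fell without tamoxifen replicate 1 and 2 rose without tamoxifen replicate 2.

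**Figure D4:**
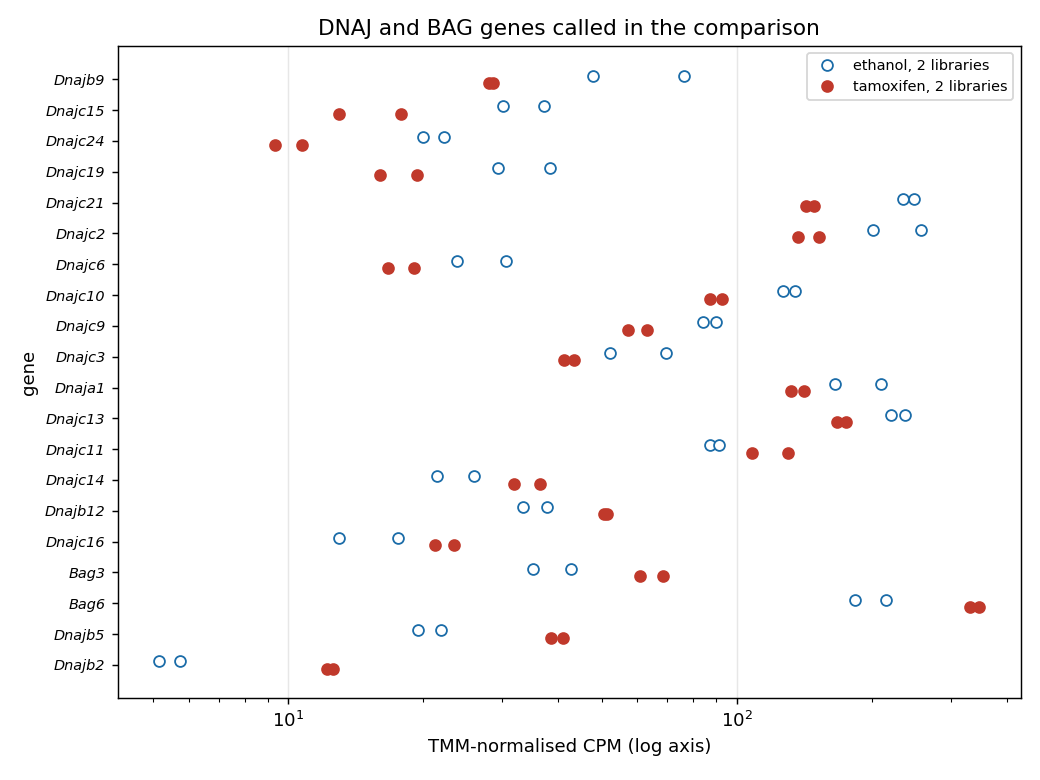
TMM-normalised CPM (log axis) of the 20 DNAJ and BAG genes called in the comparison, ordered by log2 fold change, with the 2 ethanol libraries open and the 2 tamoxifen libraries filled. Groups are apart for each gene, from Dnajb9 (47.9 and 76.2 against 28.0 and 28.6 CPM) to Dnajb2 (5.15 and 5.73 against 12.2 and 12.6). The genes were chosen by their calls in these same libraries, so the separation is no separate result. Groups did not overlap for 74.0% of all genes tested.

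Among the BAG genes 2 of 6 rose and none fell. These 33.3% were all higher, where 21.5% of all genes tested were higher and 44.5% were called in either direction. Bag6 helps deliver tail-anchored proteins to membranes and clears those that fail. It was at 215 and 184 CPM with ethanol and 348 and 331 with tamoxifen and rose 1.70-fold (0.77 ± 0.15 log2, SE; edgeR adjusted p = 0.00208). Bag3, a heat-inducible partner of HSP70 and of small HSPs in selective autophagy, was at 42.7 and 35.2 CPM with ethanol and 68.6 and 61.0 with tamoxifen and rose 1.66-fold (0.73 ± 0.16 log2; edgeR adjusted p = 0.00289). Both calls held without each library and ended with GC correction (0.12 and 0.30). Bag1, the first exchange factor of the family, had 120 and 123 CPM with ethanol and 98.3 and 112 with tamoxifen (-0.21 ± 0.14 log2, not called) and was called lower with GC correction (-0.55, edgeR adjusted p = 0.0156), except without tamoxifen replicate 1 (-0.46) or 2 (-0.64). Bag2, Bag4 and Bag5 did not pass (0.07 ± 0.17, -0.24 ± 0.17 and 0.24 ± 0.17 log2). Bag4 was called lower without ethanol replicate 1 (-0.47), and Bag5 higher without ethanol replicate 2 (0.46).

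**Figure D5:**
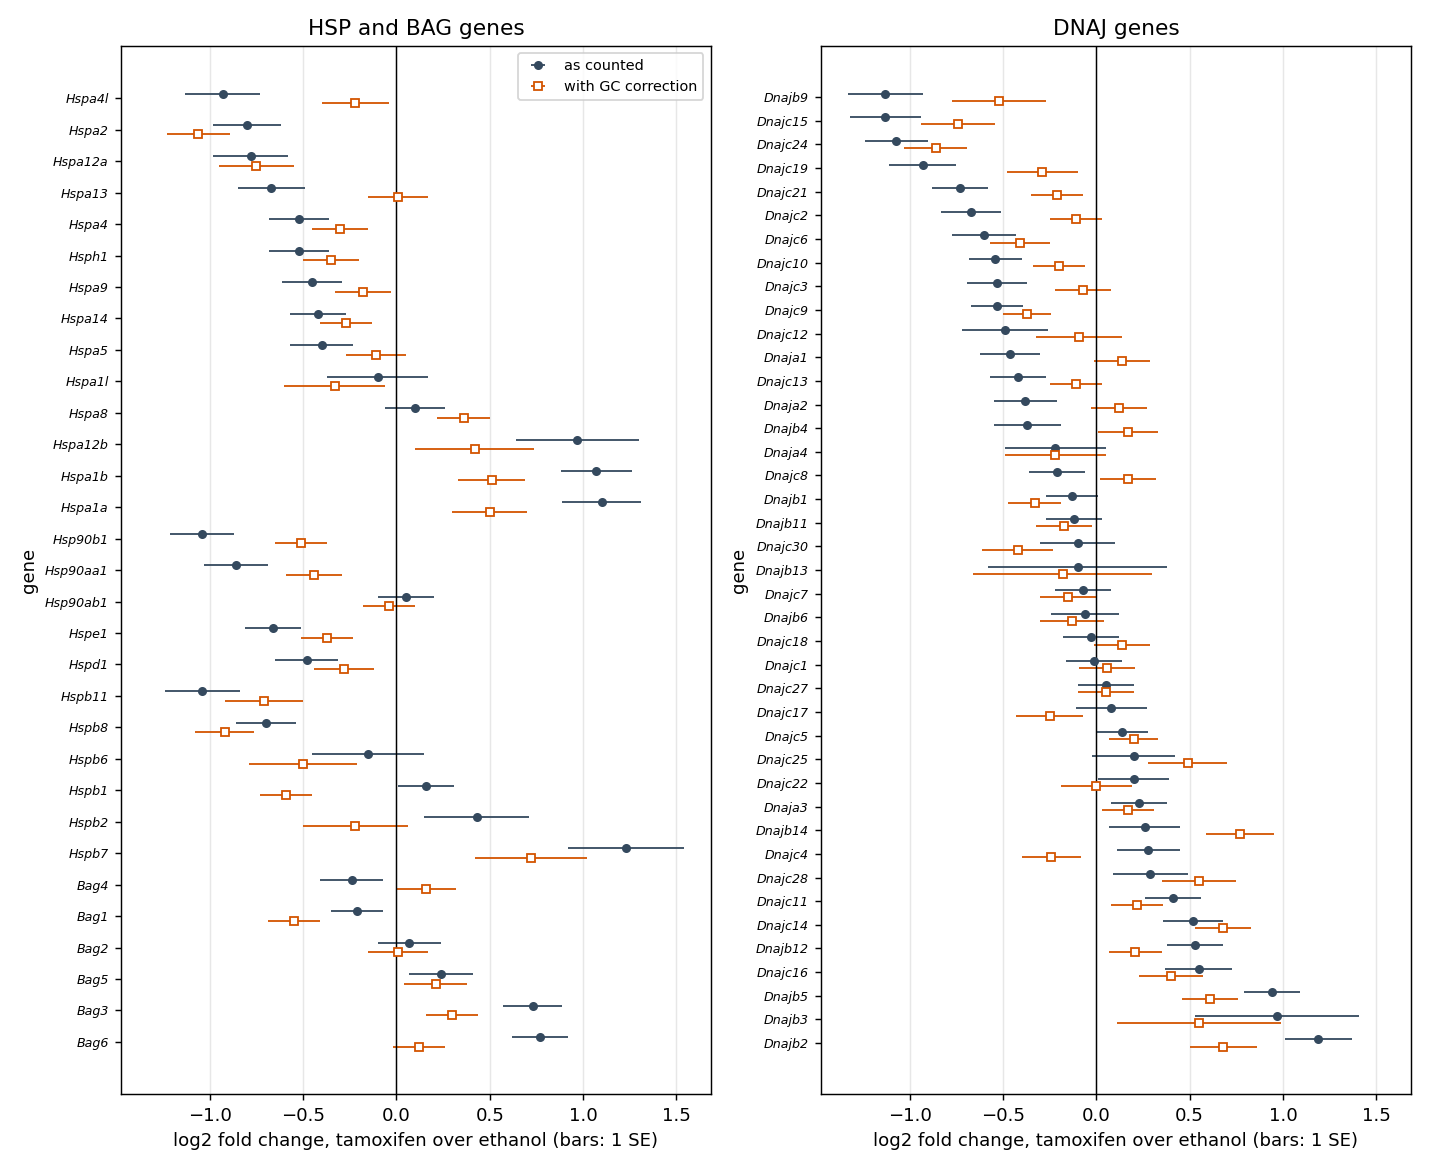
Log2 fold change of tamoxifen over ethanol with 1 SE (horizontal axis) for each of the 72 tested members (vertical axis), as counted (filled circles) and with GC correction (open squares). Correction brings many values nearer to 0, leaves Hspa2 (-1.06), Hspb8 (-0.92) and Dnajc24 (-0.86) far below it, and turns Hspb1 from 0.16 to -0.59.

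Other genes of the chaperone system were taken from 6 lists of partners. In the cytosolic chaperonin CCT, which folds actin and tubulin, 4 of 9 subunit genes fell and none rose. These 44.4% were all lower, where 22.9% of all genes tested were lower and 44.5% were called in either direction. Cct8 was at -0.68 ± 0.17 log2 (from 650 and 785 to 394 and 503 CPM), Cct2 at -0.49 ± 0.17 and Tcp1 at -0.45 ± 0.17. None was called with GC correction, and Tcp1 then turned to 0.15. Prefoldin and related genes, which pass unfolded chains to CCT, rose in 2 of 8 cases and fell in 3 (62.5% called). Vbp1 fell 2.52-fold from 153 and 181 to 60.8 and 71.4 CPM (-1.33 ± 0.16 log2; -0.38, not called, with GC correction), Pfdn4 had -0.92 ± 0.17 log2 and Pdrg1 0.66 ± 0.17 (-0.23 and 0.39 with GC correction, neither called). Calls ended for Cct8 (-0.52) without tamoxifen replicate 1, for Pdrg1 (0.51) without tamoxifen replicate 2, for Cct2 without ethanol replicate 1 (-0.35) or either tamoxifen library (-0.38 and -0.62), and for Tcp1 without ethanol replicate 2 (-0.31) or either tamoxifen library (-0.31 and -0.60). With total counts Cct2 (-0.36) and Tcp1 (-0.32) were not called. Corrected calls were gained without ethanol replicate 2 for Cct2 (-0.46) and Pfdn4 (-0.47).

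HSP90 cochaperones rose in 4 of 21 cases and fell in 7, and at 52.4% called this was near the 44.5% of all genes tested. Ptges3, which encodes p23, the cochaperone that holds HSP90 in its ATP-bound state, was at 355 and 353 CPM with ethanol and 188 and 190 with tamoxifen (-0.91 ± 0.15 log2, SE; edgeR adjusted p = 0.000655; -0.46 with GC correction, edgeR adjusted p = 0.0338). Its corrected call ended without tamoxifen replicate 1 (-0.48) or 2 (-0.44). Unc45a, a cochaperone for myosins, rose by 0.80 ± 0.15 log2 and Sugt1 had -0.62 ± 0.14, and neither was called with GC correction (0.23 and -0.04). Without tamoxifen replicate 1 Sugt1 (-0.59) was not called as counted either.

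HSP70 partners rose in 4 of 15 cases and fell in 2 (40% called, near the 44.5% of all genes tested); a sixteenth listed gene was not analysed here. Hyou1, the HSP110 of the ER lumen, had 108 and 116 CPM with ethanol and 185 and 180 with tamoxifen, and it rose (0.71 ± 0.14 log2; 0.54 with GC correction, edgeR adjusted p = 0.0168) where its lumenal neighbours Hsp90b1 fell and Hspa5 did not pass. Its corrected call ended without tamoxifen replicate 1 (0.52) or 2 (0.56). Sgta, a partner of BAG6, rose from 80.1 and 81.2 CPM to 142 and 159 (0.90 ± 0.14 log2; 0.28, not called, with GC correction). Sec63, a J protein of the ER translocon, had -0.50 ± 0.15 log2 (-0.06 with GC correction), a call that ended without ethanol replicate 2 (-0.35) or either tamoxifen library (-0.46 and -0.54) and with total counts (-0.37).

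The heat shock factors went in opposite directions as counted. Hsf1, the main activator of the heat shock response, was at 56.2 and 43.2 CPM with ethanol and 77.6 and 69.7 with tamoxifen (0.57 ± 0.16 log2; edgeR adjusted p = 0.0136). Hsf2, which is active in development, was at 73.9 and 88.3 CPM with ethanol and 45.6 and 46.2 with tamoxifen (-0.82 ± 0.15 log2; edgeR adjusted p = 0.00124). With GC correction neither was called, and Hsf2, at 36.2% GC one of the genes poor in G and C, turned to 0.10 while Hsf1 was at 0.32. The call of Hsf1 ended without ethanol replicate 2 (0.40) or tamoxifen replicate 1 (0.49), and with GC correction Hsf1 was called without ethanol replicate 1 (0.48). Over the list of factors and binders 1 of 6 tested genes rose and 2 fell (50% called). The second was Hsbp1, an HSF1-binding protein, with 311 and 155 CPM under ethanol and 125 and 116 under tamoxifen (-0.95 ± 0.30 log2). Its call ended with GC correction (-0.81), DESeq2 (-0.95), total counts (-0.82) and without ethanol replicate 1 (-0.36) or either tamoxifen library (-1.01 and -0.89), and with GC correction it was called without ethanol replicate 2 (-1.24). Of the small HSP relatives 1 of 3 could be tested. Cryab, or alpha-B-crystallin, rose from 34.7 and 24.0 CPM to 51.6 and 46.0 (0.74 ± 0.18 log2; 0.42, not called, with GC correction, and 0.66 and called with it without ethanol replicate 1).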

How the data were processed

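The 4 libraries were grouped by the treatment label. The authors deposited raw read counts per gene. Per the submitters' processing notes, CASAVA 1.8.2, Bowtie 1.1.1, HTSeq, DESeq2 and build mm9 were used, with no role stated; annotation and strandedness of the counting: not given in the sources used here. Rows that name no gene were left out. No feature held 51.7 and 40.8% of counted reads with ethanol and 37.6 and 35% with tamoxifen. Ambiguous rows held 0.889 to 1.05%. What part the group difference in the share without a feature has in the results was not tested. Counts were filtered with filterByExpr, scaled by TMM and tested with edgeR 4.0.16 (quasi-likelihood, robust, group only), with Benjamini-Hochberg adjustment over 14479 genes and a threshold of 0.05. SE is the log2 fold change divided by the square root of F. GC content came from the longest GENCODE vM21 transcript, matched by symbol for 99.4% of tested genes and all members. The GC correction took as offset a loess curve (span 0.5) of each library's log2 CPM deviation along GC content. Alternatives were RLE factors, total counts, no filter, DESeq2 1.42.0, the replicate block and leaving out each library. On simulated counts (14409 genes, 200 changed) the share of changed genes recovered was 28% at 1.5-fold, 94% at 2-fold and 100% at 4-fold. Replicates differed beyond sampling noise, with a chi-square per degree of freedom of 39.6 in the ethanol pair and 11.1 in the tamoxifen pair. The members and lists were chosen with earlier results of these data known. Named were Smarca4, all tested members other than DNAJ, the 6 largest called increases and decreases among DNAJ genes (mean log2 CPM not under 2), Hsf1, Hsf2 and up to 3 called genes with the smallest adjusted p of each partner list; Dnajb1, Dnajb14 and the smaller DNAJ decreases were added after their values were seen.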

Additional observations from a re-analysis of the deposited data

How the results depend on the processing

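RLE factors, no filter on low counts and DESeq2 moved no count of called members, by group or in all, by over 1.5 times. Total counts left 4 HSP70 genes and 1 chaperonin gene lower. GC correction called 1422 genes higher and 1551 lower in all, and 4 members higher and 9 lower. By group these were 0 HSP70 genes higher and 2 lower, 0 HSP90 genes higher and 1 lower, and 0 small HSP genes higher and 3 lower. The other groups had 0 chaperonin genes higher and 0 lower, 4 DNAJ genes higher and 2 lower, and 0 BAG genes higher and 1 lower. Leaving out each library in turn gave 1800 to 3598 genes higher and 2055 to 3728 lower (with GC correction, of all genes higher 1814, 1514, 662 and 570 and of all genes lower 1898, 2092, 799 and 649, without ethanol replicates 1 and 2 and tamoxifen replicates 1 and 2) and 7 to 11 members higher and 12 to 30 lower (0 to 7 and 3 to 13). By group the ranges were 2 to 3 HSP70 genes higher and 3 to 9 lower (0 and 1 to 3), 2 HSP90 genes lower (0 to 2), 1 small HSP gene higher and 1 to 3 lower (0 to 1 and 1 to 4), 0 to 2 chaperonin genes lower (0 to 1), 2 to 5 DNAJ genes higher and 5 to 14 lower (0 to 6 and 1 to 5), and 2 to 3 BAG genes higher and 0 to 1 lower (0 and 0 to 1). A lone library left in a group was assumed to vary like the other group.

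Directions turned with GC correction for Bag4 (0.16), Hsp90ab1 (-0.04), Hspa13 (0.01), Hspb1 (-0.59), Hspb2 (-0.22), Hsf2 (0.10) and Tcp1 (0.15), and with total counts for Hspa1l (0.03); apart from the correction itself, the cause was not tested. Ranges over left-out libraries that held a turn were -0.04 to 0.18 for Bag2, -0.47 to 0.05 for Bag4, 0.00 to 0.09 for Hsp90ab1, -0.33 to 0.12 for Hspa1l, -0.02 to 0.21 for Hspa8 and -0.53 to 0.27 for Hspb6. With GC correction they were -0.10 to 0.12 for Bag2, -0.04 to 0.40 for Bag4 (0.17 without tamoxifen replicate 1), -0.08 to 0.01 for Hsp90ab1 (-0.05 and -0.03 without ethanol replicates 1 and 2), -0.12 to 0.16 for Hspa13, -0.28 to 0.05 for Hspa5, -0.62 to -0.56 for Hspb1 (-0.57 without tamoxifen replicate 2), -0.41 to -0.07 for Hspb2 (-0.24 and -0.19 without ethanol replicates 1 and 2), -0.23 to 0.02 for Dnajc2, 0.05 to 0.15 for Hsf2 (0.06 and 0.13 without ethanol replicates 1 and 2), 0.04 to 0.26 for Tcp1, -0.47 to 0.04 for Pfdn4, -0.11 to 0.02 for Sugt1 and -0.16 to 0.03 for Sec63.

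The labels do not say that equal replicate numbers share a culture or day, and there are only 2 pairs; deviations of same-numbered libraries correlated at 0.234 across 14479 genes. With the replicate block 12 members were higher and 28 lower, with 9 HSP70 and 13 DNAJ genes lower, and Hspa5 was called (-0.40). The replicate block with GC correction left 3 HSP70, 4 small HSP, 1 chaperonin, 7 DNAJ and 1 BAG gene lower and 0 BAG genes higher, and turned Bag4 (0.18), Hsp90ab1 (-0.04), Hspa13 (0.01), Hspb1 (-0.59), Hspb2 (-0.22), Hsf2 (0.10) and Tcp1 (0.15).

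With 2 libraries a group the test recovered 28% of simulated 1.5-fold changes. The simulation changed 200 of 14409 genes, while 44.5% of genes were called in the data. Its adjusted p threshold was therefore stricter, and the share recovered need not hold for the members. A member that did not pass may still differ. Of the tested members, Hspa12b, Hspa1l, Hspb2, Hspb7, Dnajb3 and Dnajb13 rest on under 70 reads per library.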

Other observations

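Members were also grouped by the compartment of their proteins, after their values were seen, so the counts are descriptions. Of all genes tested 44.5% were called, 21.5% higher and 22.9% lower. Of 13 ER members, 5 fell (Hsp90b1, Hspa13, Dnajb9, Dnajc3 and Dnajc10) and 3 rose (Dnajb12, Dnajc14 and Dnajc16), with a median log2 fold change of -0.12. Hspa5, Dnajb11, the ERdj3 partner of BiP, and the ER membrane J proteins Dnajc1, Dnajb14 and Dnajc18 did not pass. Dnajb11 was at 36.7 and 42.9 CPM with ethanol and 34.9 and 38.6 with tamoxifen, and Dnajc1 at 28.3 and 32.4 against 29.6 and 30.8. With GC correction the median of the ER members was 0.01, with Hsp90b1 called lower and Dnajb14 and Dnajc14 higher. GC contents ran from 39.8 to 54.3%.

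Of 8 members grouped as mitochondrial, 5 fell (Hspa9, Hspd1, Hspe1, Dnajc15 and Dnajc19) and Dnajc11 rose, with a median of -0.46. Dnajc30, also in the grouping, did not pass (-0.10 ± 0.20 log2). Dnajc4 and Dnajc28 were not in the grouping and did not pass either (0.28 ± 0.17 and 0.29 ± 0.20 log2). The counts and medians hold for the 8 alone. With GC correction the median was -0.29, and only Dnajc15 of the 8 was called. Dnaja3, or TID1, the J protein of the matrix, had 51.1 and 56.6 CPM with ethanol and 59.2 and 66.7 with tamoxifen and did not pass (0.23 ± 0.15 log2).

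Of 10 members induced by heat in many cells, 3 rose (Hspa1a, Hspa1b and Bag3), 5 fell (Hsp90aa1, Hsph1, Hspd1, Hspe1 and Dnaja1), and Dnajb1 and Hspb1 did not pass. Their GC contents ran from 41.2 to 61.7%. With GC correction none rose and only Hspb1 was called lower.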
